A study of Mus musculus with 6 samples.

Results

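The enzymes of the urea cycle and of nitrogen disposal were followed by their disome footprints. These are the fragments of messenger RNA shielded from nuclease by a pair of ribosomes that have run into each other. The set was defined by 9 Ensembl gene identifiers, and 8 of them were among the 8941 genes of the deposited tables. These 8 are the 5 cycle enzymes Cps1 (ENSMUSG00000025991), Otc (ENSMUSG00000031173), Ass1 (ENSMUSG00000076441), Asl (ENSMUSG00000025533) and Arg1 (ENSMUSG00000019987), together with Oat (ENSMUSG00000030934), Glul (ENSMUSG00000026473) and Gls2 (ENSMUSG00000044005). Nags (ENSMUSG00000048217), which makes the allosteric activator of Cps1, was not listed and has no value here. The tables give identifiers only, so the symbols come with the list of identifiers and not from a deposited file.

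Livers came from male C57BL/6JRj mice aged 11 to 12 weeks with no genetic change named in the labels, kept under 12 h of light and 12 h of darkness. Mice were killed at zeitgeber time ZT0 (lights on), ZT2 or ZT12 (lights off), with 2 libraries per time point, each from the pooled lysates of 2 animals, and n counts libraries. The labels call the pools of a time point replicates, and both carry the same sample name apart from the replicate number. They say no more of how the pools were separated, so p-values measure only the spread between these libraries. All groups shared cycloheximide in the lysis buffer and digestion with 650 U of RNase I for 45 min. The deposited unit is RPKM, reads per kilobase of coding sequence scaled by library. Whole reads could be recovered from the RPKM values and summed to 6346387 to 12322651 per library. Over the 258 genes averaging 500 RPKM or more, the libraries of ZT2 were the least alike, with a median ratio between replicates of 1.21. For the 7 enzymes at that level this median was 1.06 at ZT2, 1.14 at ZT0 and 1.02 at ZT12, though Ass1 reached 1.65 at ZT2. At ZT2, 97 and 250 genes were listed at 0, against 4 in each library of ZT0 and 4 and 52 at ZT12.

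The urea cycle turns ammonia, which is toxic, into urea for excretion. Cps1 and Otc act in the mitochondrial matrix, where they make carbamoyl phosphate and join it to ornithine as citrulline, and Ass1, Asl and Arg1 finish the cycle in the cytosol and give back ornithine. In liver these enzymes and the glutaminase Gls2 are most active in the hepatocytes around the portal vein, while Glul, glutamine synthetase, and Oat, ornithine aminotransferase, are concentrated in the cells around the central vein, where leftover ammonia is caught as glutamine. Disome level here follows transcript amount, translation and stacking together, since neither total RNA nor single-ribosome footprints were analysed here. In whole liver, fewer cells of a type and fewer footprints per cell cannot be told apart.

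Of the 8 enzymes, 7 were among the genes with most disome footprints per length of coding sequence. Cps1 averaged 3755 RPKM ± 444 (SD, n = 6) and ranked 38th of 8941 genes by mean level, and Arg1 averaged 3590 RPKM ± 728 (SD, n = 6) and ranked 40th. Oat followed at 2405 RPKM ± 425, Otc at 1943 RPKM ± 167, Glul at 1556 RPKM ± 194, Ass1 at 1317 RPKM ± 387 and Asl at 724 RPKM ± 109 (SD, n = 6 each), with ranks from 60 for Oat to 180 for Asl. Gls2, which frees ammonia from glutamine, stood far below the rest at 72.7 RPKM ± 15.6 (SD, n = 6), at rank 1236. The median gene listed had 7.47 RPKM, and 126 genes had a mean above 1000 RPKM, 6 of them from this set.

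**Figure D1:**
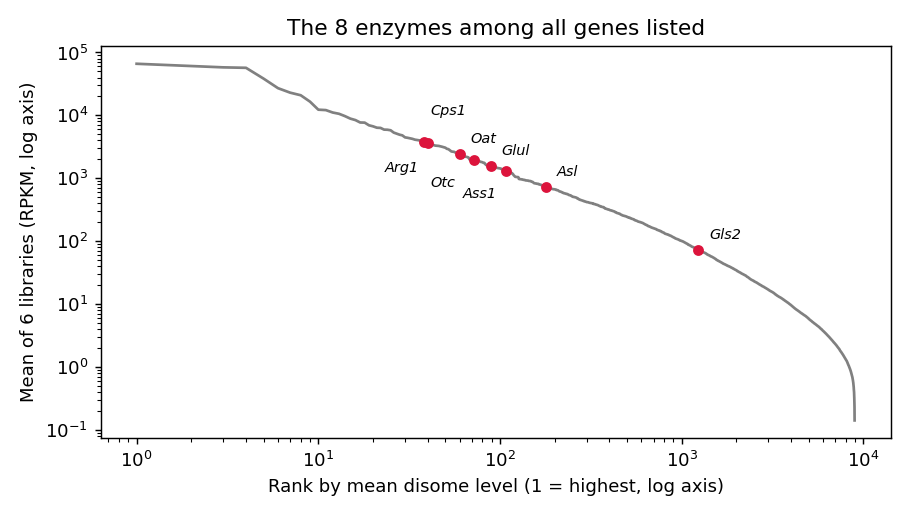
Mean disome level over the 6 libraries (RPKM, log axis) against rank by that level (log axis) for all 8941 genes, with the 8 enzymes as red points. Cps1, Arg1, Oat, Otc, Glul, Ass1 and Asl lie between ranks 38 and 180, and Gls2 lies at rank 1236.

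The order of levels was resolved at its lower end. Asl exceeded Gls2 by 9.95 times in mean RPKM and their ranges over the 6 libraries were apart, as were those of Ass1 (lowest library 981 RPKM) and Asl (highest library 843 RPKM). Further up, every neighbour overlapped the next in range. Cps1 lay above Arg1 in 4 of the 6 libraries and below it in both libraries of ZT12. Arg1 lay above Oat in 6 of 6 libraries, Oat above Otc in 5, Otc above Glul in 6 and Glul above Ass1 in 5.

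**Figure D2:**
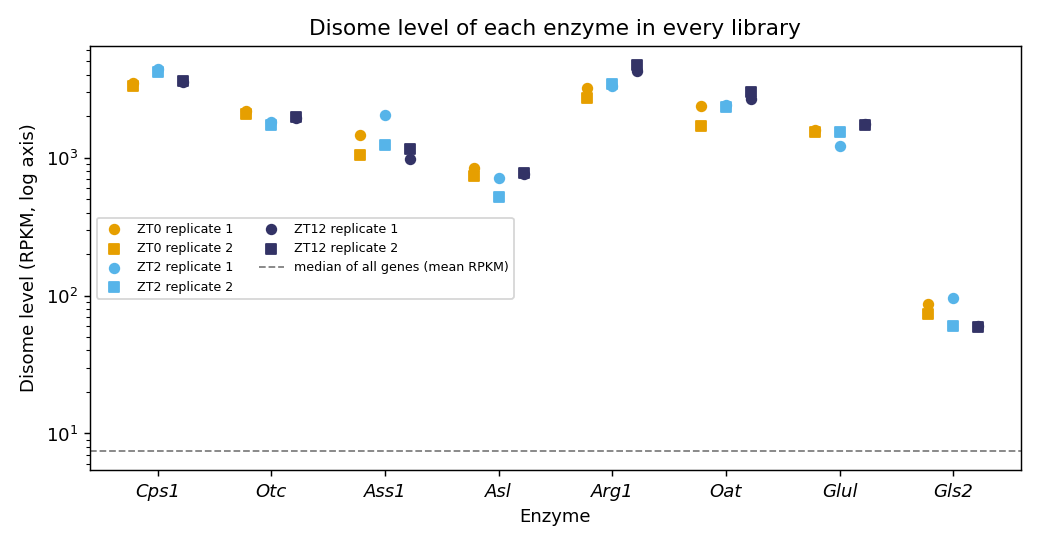
Disome level (RPKM, log axis) of each enzyme in each of the 6 libraries, with ZT0, ZT2 and ZT12 from left to right within an enzyme, circles for replicate 1 and squares for replicate 2. Gls2 sits near 60 to 96 RPKM, well above the dashed median of 7.47 RPKM for all genes and well below the other enzymes.

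Because RPKM divides by length, the long Cps1 messenger carried more of the footprints than its level shows. Its recovered coding length was 1500 codons, against 323 for Arg1, 354 for Otc, 373 for Glul, 412 for Ass1, 439 for Oat, 464 for Asl and 602 for Gls2. Cps1 alone held 1.53% and 1.46% of all recovered reads in the ZT0 libraries, 1.94% and 1.85% in those of ZT2, and 1.70% and 1.68% in those of ZT12. The 8 enzymes together held 2.84% and 2.57% of reads in the ZT0 libraries, 3.24% and 3.05% in those of ZT2, and 3.19% and 3.25% in those of ZT12. The lowest of these shares, in ZT0 replicate 2, had a 95% exact Clopper-Pearson interval of 2.56% to 2.58%, and the highest, in ZT12 replicate 2, one of 3.24% to 3.26%. Such intervals cover counting error only. The whole set was thus read from 200767 to 392939 footprints per library, and Gls2, the least covered, from 842 to 1428.

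Promoter sequence in the RefSeq table for GRCm38.p6 was found for 4 of the 8 enzymes, namely Ass1, Otc, Oat and Glul. Those of 3 are printed, 1 from each course described further on: Otc with its highest mean at ZT0, Ass1 at ZT2 and Oat at ZT12. None of these courses was resolved by a test, so the choice ties no motif to a time point. Each run gives the 250 bases before the start that the promoter table uses, with matches to the searched motifs in capitals. For Ass1, Oat and Glul that start is the gene's outer end in the RefSeq gene table. The Otc window was drawn for a start further downstream, and its last 75 bases lie inside the annotated gene.
Otc, chrX:10252055-10252304, plus strand: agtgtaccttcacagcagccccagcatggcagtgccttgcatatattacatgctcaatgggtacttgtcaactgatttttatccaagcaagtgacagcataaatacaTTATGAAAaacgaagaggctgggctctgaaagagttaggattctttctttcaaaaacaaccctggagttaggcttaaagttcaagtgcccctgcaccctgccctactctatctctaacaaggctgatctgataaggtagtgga
Ass1, chr2:31470020-31470269, plus strand: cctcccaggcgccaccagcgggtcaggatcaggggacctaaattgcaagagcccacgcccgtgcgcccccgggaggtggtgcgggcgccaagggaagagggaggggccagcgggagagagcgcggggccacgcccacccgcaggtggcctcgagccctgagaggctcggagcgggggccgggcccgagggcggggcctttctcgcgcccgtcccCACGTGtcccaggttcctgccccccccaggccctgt
Oat, chr7:132576399-132576648, minus strand: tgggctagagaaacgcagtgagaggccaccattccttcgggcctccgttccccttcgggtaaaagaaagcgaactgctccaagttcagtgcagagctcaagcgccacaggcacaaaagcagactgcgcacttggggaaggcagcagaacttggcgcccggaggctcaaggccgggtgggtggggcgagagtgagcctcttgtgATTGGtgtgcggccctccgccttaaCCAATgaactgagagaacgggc

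Motifs were searched on both strands, and no matches overlapped in these windows. The E-box CACGTG, which the clock factors BMAL1 and CLOCK bind, occurred in Ass1 at 36 to 31 bases before the start, and 6.02% of the 32851 windows of this length held it. Otc held TTATGNAA, a loose form of the D-box bound by DBP and its relatives, at 143 to 136 bases before the promoter table's start, which is 68 to 61 bases before the gene's outer end, a match found in 3.07% of windows. Oat held CCAAT in both orientations, at 47 to 43 and at 22 to 18 bases before the start, and 33.8% of windows held that motif. The motif AGGTCA, bound by REV-ERB and ROR receptors, was found in Glul and in 14.0% of windows, and Glul also held CCAAT. The core TGACG of the cyclic AMP response element was in 0 of the 4 windows, against 17.8% of all. The TATA box, searched as TATAAA, was in 0 of the 4 and in 12.4% of all, and a C/EBP form, searched as TTGCNNAA, was in 0 of the 4 and in 9.56% of all. These matches describe letters in the windows and no binding was measured.

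Over the 3 time points, no enzyme of the set passed the moderated F test in limma at an adjusted p of 0.05 (0 of 8), where 1.26% of the 8355 genes tested passed. At an unadjusted p of 0.05 the F test counted 1 of the 8, Arg1, against 18.6% of all genes tested. The mean was highest at ZT0 for Otc, Asl and Gls2, at ZT2 for Cps1 and Ass1, and at ZT12 for Arg1, Oat and Glul. None of these orders was resolved by the test. The highest library exceeded the lowest by 1.27 times for Otc and by 2.07 times for Ass1, the ends of the range.

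**Figure D3:**
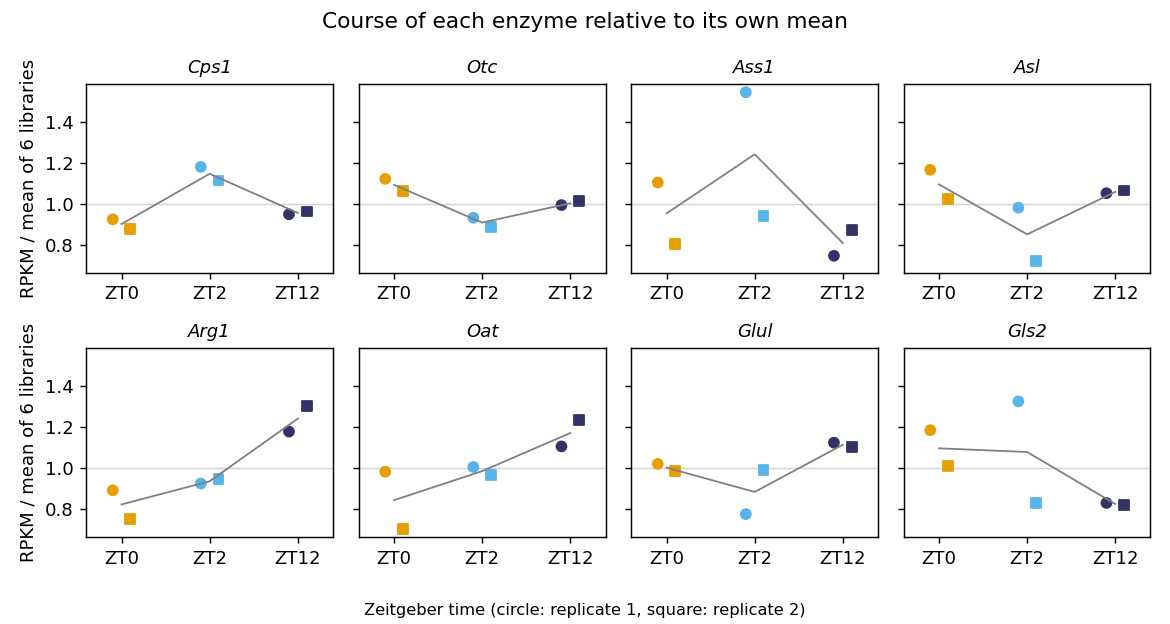
RPKM of each enzyme divided by its own mean over the 6 libraries, at ZT0, ZT2 and ZT12 (circles replicate 1, squares replicate 2, lines join the time point means). Arg1 and Oat have their highest libraries at ZT12, Cps1 at ZT2 and Otc at ZT0, and Ass1 and Gls2 show the widest gaps between replicates, at ZT2.

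The means of the mitochondrial entry steps lay on opposite sides of ZT0 at ZT2, neither past the test. Cps1, which commits ammonia to the cycle, stood at 3467 and 3293 RPKM in the ZT0 libraries, 4426 and 4176 RPKM in those of ZT2, and 3558 and 3609 RPKM in those of ZT12. Both ZT2 libraries lay above all 4 others. The ZT2 mean was 1.27 times that of ZT0, a log2 change of 0.35 ± 0.16 (SE, limma, adjusted p = 0.38), and the 95% interval of the difference ran from -1.20% to 63.9%. Otc, which makes citrulline, stood at 2177 and 2064 RPKM in the ZT0 libraries, 1809 and 1717 RPKM in those of ZT2, and 1929 and 1964 RPKM in those of ZT12. Here both ZT2 libraries were the lowest and both ZT0 libraries the highest, with no overlap between any of the time points. The log2 change of Otc at ZT2 against ZT0 was -0.27 ± 0.15 (SE, limma, adjusted p = 0.47).

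Set against each other within a library, where the scaling cancels, the pair was very steady between replicates. Cps1 RPKM over Otc RPKM was 1.592 and 1.595 in ZT0 libraries, 2.447 and 2.432 in ZT2 libraries, and 1.844 and 1.837 in ZT12 libraries. On the log2 scale the replicates of a time point differed by at most 0.0088, while the time point means spanned 0.61. This was the pair with the widest span relative to its replicate gaps among the 28 pairs of the 8 enzymes. It was picked out after the values were seen, so no test is given. By span alone other pairs were wider, such as Arg1 and Gls2 at 1.00, with a largest replicate gap of 0.71. In 19 of the 28 pairs the span of the time point means exceeded the largest gap between replicates. The share among pairs of other genes was not computed, and the 28 pairs share enzymes, so the count describes the set only. The fewest Otc reads, 11858, carry a counting error of 0.918%, so that the replicate gap of this ratio was no wider than counting error alone.

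**Figure D4:**
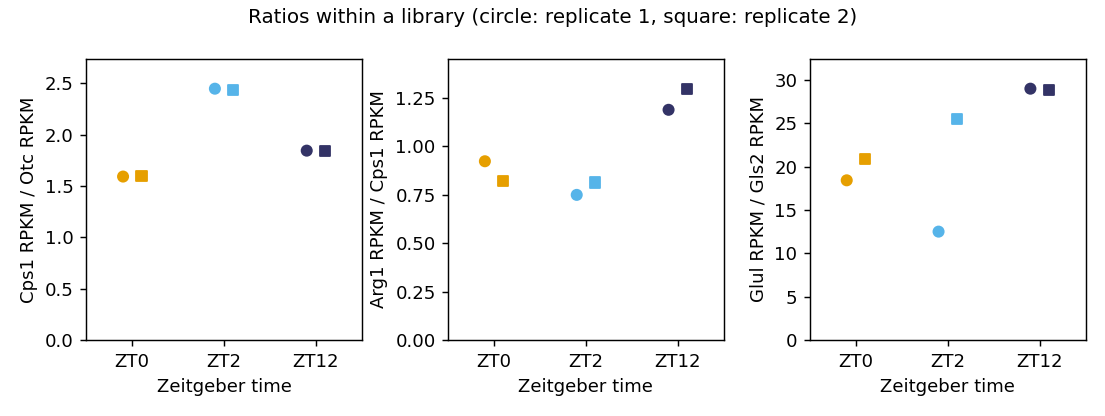
Ratio of RPKM between 2 enzymes within each library at ZT0, ZT2 and ZT12 (circles replicate 1, squares replicate 2, axes from 0). Cps1 over Otc separates the time points at 1.59, 2.44 and 1.84, Arg1 over Cps1 is above 1 only at ZT12, and Glul over Gls2 ranges from 12.5 to 25.5 between the replicates of ZT2.

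Ass1, the first cytosolic enzyme, had the widest spread of the set. It joins citrulline to aspartate, and stood at 1452 and 1054 RPKM in the ZT0 libraries, 2032 and 1234 RPKM in those of ZT2, and 981 and 1147 RPKM in those of ZT12. One library, ZT2 replicate 1, stood above all others, and ZT2 replicate 2 lay within the range of ZT0. The replicates of ZT2 differed 1.65-fold from 15505 and 11761 reads, far more than counting error. For ZT12 against ZT2 the log2 change was -0.58 ± 0.27 (SE, limma, adjusted p = 0.30), and it was -0.22 with ZT2 replicate 1 left out and -0.94 with ZT2 replicate 2 left out. For ZT2 against ZT0 it was 0.36 ± 0.27 (SE, limma, adjusted p = 0.59), and without ZT2 replicate 1 it was -0.0036.

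Asl, which splits argininosuccinate into arginine and fumarate, stood at 843 and 740 RPKM in the ZT0 libraries, 710 and 521 RPKM in those of ZT2, and 761 and 770 RPKM in those of ZT12. Both ZT2 libraries were below all others, and the log2 change against ZT0 was -0.38 ± 0.19 (SE, limma, adjusted p = 0.42). It was -0.60 with ZT2 replicate 1 left out and -0.15 with ZT2 replicate 2 left out. Between ZT12 and ZT0, where the libraries overlap, the log2 change was -0.05 ± 0.19 (SE, limma, adjusted p = 0.94) and turned to 0.05 under scaling of the libraries to 1 common read total, and also without ZT0 replicate 1. Ass1 over Asl within a library was 1.72 and 1.43 in ZT0 libraries, 2.86 and 2.37 in ZT2 libraries, and 1.29 and 1.49 in ZT12 libraries, so the libraries of ZT2 lay above the other 4.

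Arg1, which releases urea and closes the cycle, had the smallest unadjusted p of the set, for ZT12 against ZT0. It stood at 3202 and 2706 RPKM in the ZT0 libraries, 3320 and 3401 RPKM in those of ZT2, and 4230 and 4684 RPKM in those of ZT12. The time points did not overlap, and both ZT12 libraries were the highest and both ZT0 libraries the lowest. Arg1 averaged 4457 RPKM ± 321 at ZT12 and 2954 RPKM ± 351 at ZT0 (SD, n = 2 each), a ratio of 1.51. Its log2 change was 0.60 ± 0.17 (SE), from 14.8% to 99.3% higher by the 95% interval, with an unadjusted p of 0.0092 and an adjusted p of 0.18 in limma, at place 433 of the 8355 genes by p. Over the other settings tried, this adjusted p ran between 0.064 and 0.87. The ZT12 libraries were also the deepest, with 12322651 and 11904184 recovered reads, against 7197462 and 7816463 at ZT0, and the part of depth in the differences of Arg1 and Oat was not tested. Against ZT2 the log2 change at ZT12 was 0.41 ± 0.17 (SE, limma, adjusted p = 0.25). Arg1 over Cps1 within a library was 1.19 and 1.30 at ZT12, while it was 0.924 and 0.822 at ZT0 and 0.750 and 0.814 at ZT2.

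Oat, which moves the amino group of ornithine to 2-oxoglutarate and so drains ornithine away from the cycle, had a course like that of Arg1. It stood at 2363 and 1694 RPKM in the ZT0 libraries, 2418 and 2322 RPKM in those of ZT2, and 2660 and 2974 RPKM in those of ZT12. The libraries of ZT12 were the highest, and those of ZT0 lay far apart at a replicate ratio of 1.39. Oat averaged 2817 RPKM ± 222 at ZT12 and 2029 RPKM ± 473 at ZT0 (SD, n = 2 each). Its log2 change for ZT12 against ZT0 was 0.49 ± 0.20 (SE, limma, adjusted p = 0.32). Without ZT0 replicate 1 that change was 0.73, and without ZT0 replicate 2 it was 0.25. Pearson's r between Arg1 and Oat, on log2(RPKM + 1), was 0.93 over the 6 libraries, the highest of the 28 pairs and given as a description of libraries that share their scaling and depth.

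The enzymes of glutamine turnover, Glul and Gls2, had their highest means at ZT12 and at ZT0. Neither passed the F test (limma, adjusted p = 0.46 and 0.52). The log2 ratio of the pair spanned 0.69 between time point means, less than its largest replicate gap of 1.03. Glul, which builds glutamine from ammonia and glutamate, stood at 1588 and 1531 RPKM in the ZT0 libraries, 1206 and 1544 RPKM in those of ZT2, and 1749 and 1717 RPKM in those of ZT12. Both ZT12 libraries were above all others, and ZT2 replicate 1 was the lowest. Against ZT2 the log2 change at ZT12 was 0.34 ± 0.17 (SE, limma, adjusted p = 0.33), and it was 0.17 with ZT2 replicate 1 left out and 0.52 with ZT2 replicate 2 left out. Gls2 stood at 86.2 and 73.3 RPKM in the ZT0 libraries, 96.4 and 60.5 RPKM in those of ZT2, and 60.4 and 59.6 RPKM in those of ZT12. The ZT12 libraries were the lowest 2, but ZT2 replicate 2 exceeded them by less than its counting error. Against ZT0 the log2 change at ZT12 was -0.40 ± 0.24 (SE, limma, adjusted p = 0.51). Across the 6 libraries Ass1 and Gls2 had an r of 0.83 and Ass1 and Glul one of -0.87, both descriptions in which ZT2 replicate 1 holds the highest Ass1, the highest Gls2 and the lowest Glul.

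ZT2 against ZT0 called none of the enzymes in limma (0 of 8), where 0.0239% of tested genes were called. None had an unadjusted p under 0.05 either (0 of 8, against 13.7% of genes tested). Libraries did not overlap for 4 of the 8, against 46.4% of genes tested: Cps1 and Arg1 were higher and Otc and Asl lower at ZT2. The median log2 change was 0.07 for the set and -0.04 for all tested genes, and 4 enzymes had a change above 0 and 4 below. Its median without regard to sign was 0.26 in the set and 0.30 over all tested genes.

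ZT12 against ZT0 also called none (0 of 8) in limma, where 0.946% of tested genes were called. At an unadjusted p of 0.05 it counted 2, Arg1 and Oat, both higher at ZT12, against 14.5% of tested genes. Libraries did not overlap for 6 of the 8, against 54.4% of tested genes, with Cps1, Arg1, Glul and Oat higher and Otc and Gls2 lower at ZT12. The median log2 change was 0.02 for the set and -0.01 for all tested genes. Without regard to sign, the median was smaller in the set, 0.19 against 0.30 over all tested genes.

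ZT12 against ZT2 called none (0 of 8) in limma, where 2.06% of tested genes were called, and counted 1, Arg1, at an unadjusted p of 0.05, against 19.2% of tested genes. Libraries did not overlap for any of the 8 (8 of 8, against 45.9% of tested genes). Otc, Asl, Arg1, Glul and Oat were higher and Cps1, Ass1 and Gls2 lower at ZT12. For Gls2 the nearest libraries were ZT2 replicate 2 at 60.5 RPKM (842 reads) and ZT12 replicate 1 at 60.4 RPKM, a gap within counting error. Without ZT2 replicate 1 the log2 change of Gls2 was -0.0112. The median absolute log2 change was 0.34 in the set and 0.34 over all tested genes. The median SE was smaller in the set, 0.18 against 0.29 over all tested genes in each comparison. Its part in the counts of libraries that do not overlap was not tested. The comparisons share libraries, so their counts are not independent of each other. With voom on the recovered reads, the other tool run, 0 of 8 enzymes were called in each comparison and in the F test.

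**Figure D5:**
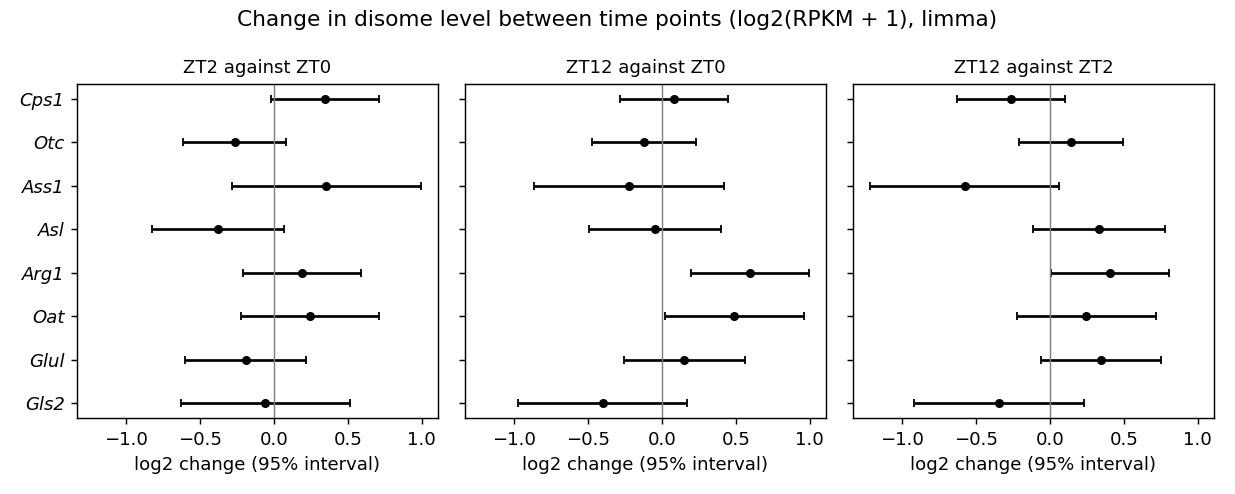
Log2 change of each enzyme on the log2(RPKM + 1) scale in limma, with 95% intervals, for ZT2 against ZT0, ZT12 against ZT0 and ZT12 against ZT2. The unadjusted intervals of Arg1 lie above 0 in the last 2 comparisons and that of Oat in ZT12 against ZT0, and all others include 0.

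The summed level of the 5 cycle enzymes was 11141 and 9857 RPKM in the ZT0 libraries, 12296 and 11050 RPKM in those of ZT2, and 11458 and 12173 RPKM in those of ZT12. The time points overlapped at ZT0 and ZT2, since ZT2 replicate 2 lay below ZT0 replicate 1, and ZT12 lay within the range of ZT2 but above both ZT0 libraries. Its mean was 11816 RPKM ± 505 at ZT12 and 10499 RPKM ± 908 at ZT0 (SD, n = 2 each). The coefficient of variation over the 6 libraries was 8.59% for Otc to 29.4% for Ass1, and its median over the 258 genes averaging 500 RPKM or more was 20.2%.

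The genes most like Arg1, the enzyme with the smallest F test p, were sought by Pearson's r of log2(RPKM + 1) over the 6 libraries among 3918 other genes averaging 10 RPKM or more. ENSMUSG00000064351 had an r of 0.989, with 82.1 and 62.9 RPKM in the ZT0 libraries, 90.5 and 96.0 RPKM in those of ZT2, and 117.0 and 147.5 RPKM in those of ZT12. ENSMUSG00000022711 had an r of 0.986, with 91.3 and 80.2 RPKM in the ZT0 libraries, 94.6 and 98.1 RPKM in those of ZT2, and 120.6 RPKM in both of ZT12. In all, 20 of these genes had an r above 0.95, and with 6 points the ranking is a description only.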

How the data were processed

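The 6 disome profiling libraries of liver were used, 2 per time point. The authors deposited RPKM values per gene, 1 table per library with no header or symbols. The submitters' processing notes name the aligners STAR and Bowtie2 2.3.0, the trimmer cutadapt, CASAVA 1.82, StringTie and edgeR, and the builds mm10 and GRCm38.p2. How each was used, the annotation, how genes were filtered and what became of multiply mapped reads: not given in the sources used here.

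RPKM values of a gene stood in ratios of whole numbers across libraries to a relative tolerance of 5e-13, and whole reads came out for 100% of 8941 genes. The library factors followed the upper quartile of reads. Coding lengths were multiples of 3 for 95.16% of genes. The unit of length was chosen so that most well-covered genes would be, so this share is no check on the recovery. Differences were tested with limma 3.58.1 in R 4.3.3 (lmFit, eBayes with trend) on log2(RPKM + 1), over 8355 genes averaging 1 RPKM or more, all 6 libraries in 1 fit with 3 residual degrees of freedom. The Benjamini-Hochberg adjustment ran over the whole table, at a threshold of 0.05. The test was also run on simulated data in which all genes of a time point had the same spread. Since real spread differs between genes, no power for these enzymes is read from that run. Fold values are ratios of mean RPKM.

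The enzymes, lists and tests were chosen with earlier results of these data known. All members were named, and the 2 genes most like the member with the smallest F test p. Lists of nitrogen partners, transporters, zonation genes, hormone response genes and cell type markers were not tested, and the liver label was not checked against markers, because no table used here pairs the identifiers with symbols (0 genes matched). Alternatives covered the pseudocount, the filter, the scaling, the libraries fitted, the replicate block, voom on recovered reads and leaving out each library.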

Additional observations from a re-analysis of the deposited data

How the results depend on the processing

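No alternative called any of the 8 enzymes in any comparison, and over 312 values of single enzymes 306 kept their direction and 6 reversed, none of them past the threshold. Not all of the 312 could reverse. A log2 change stays the same by design without the filter, with only the 4 libraries compared and with the replicate block. The same holds when a library of the time point outside the comparison is left out. The lowest adjusted p was 0.0641. Asl for ZT12 against ZT0 reversed to a log2 change of 0.0502 with every library scaled to the same total, and ran from -0.1398 to 0.0492 when each library was left out. In the same way Ass1 ran from -0.4530 to 0.0085 for ZT12 against ZT0, and from -0.0036 to 0.7152 for ZT2 against ZT0. Gls2 ran from -0.3891 to 0.2751 for ZT2 against ZT0. The reversals came without ZT0 replicate 1 for Asl, for Ass1 at ZT12 and for Gls2 (0.0581), without ZT2 replicate 1 for Ass1 at ZT2, and without ZT2 replicate 2 for Gls2.

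Over all genes, the comparison of ZT2 against ZT0 called 2, that of ZT12 against ZT0 called 79, that of ZT12 against ZT2 called 172 and the F test called 105, and the counts that follow keep this order. They were 9, 283, 356 and 360 with voom, and 1, 282 and 39 with only the 4 libraries compared. A pseudocount of 0.1 gave 6 for ZT2 against ZT0. Leaving out each library gave 0 to 248, 3 to 283, 5 to 597 and 5 to 612, where a lone library is assumed to vary like the others. With the replicate block the counts were 2, 51, 113 and 76, and with correlations of -0.076, -0.019 and 0.018 between the deviations of libraries of 1 number, these numbers give no pairing. Under scaling to 1 common read total, ZT12 against ZT2 had a median log2 change of 0.12 over all genes, in place of 0.03, and 112 genes higher and 66 lower, in place of 89 and 83. For all of these, the cause was not tested.

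The share of reads on the 8 enzymes, 3.02%, was 1.41% of summed RPKM and 4.07% of reads without the 15 most abundant genes. Counting error was at most 3.45% of a level, for Gls2 at 842 reads, and 2 libraries per time point leave 3 residual degrees of freedom.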
